A study of Vernicia fordii with 6 samples.

Results

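Leucine-rich repeat (LRR) receptor kinases of tung tree (Vernicia fordii) were described here in male and female flowers at stage 7. They were selected by the SwissProt description of each unigene, an assembled transcript. A description had to name an LRR receptor-like kinase or a leucine-rich repeat receptor, and those that also named pollen, brassinosteroid receptors, BRI1 or CLAVATA were left out. This gave 320 of 56065 unigenes. The study sequenced RNA of flower buds at stage 7 from trees labelled 4-year old, with 3 samples of male flowers and 3 of female flowers. At this stage the paper describes stamens as primordia. In the female flower the center of the floral meristem has begun to bulge and form the gynoecium. Each sample pooled 30 flowers, and the methods state that flowers of both sexes came from the same plant. No treatment or genotype separated the samples, so that sex was the only difference between the groups that the labels give. The methods call the samples of a sex biological replicates, and the labels do not say whether they came from separate trees, so that p-values measure the spread between these samples only.

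An LRR receptor kinase is a protein of the plasma membrane. Its outer part, built of leucine-rich repeats, binds a peptide, a steroid or a fragment of a microbe, and its inner part is a kinase that passes the signal on. Most of them act together with a shorter co-receptor of the SERK family, and cytoplasmic kinases and MAP kinase cascades follow. In flowers, members of the family are known to set organ size, to keep stem cells, to define the cell layers of the anther and to guide the pollen tube.

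The 320 unigenes matched 85 SwissProt entries, of which 315 unigenes matched entries of Arabidopsis and 5 matched maize. The 5 maize matches were to FASCIATED EAR2, whose description names a receptor-like protein and no kinase. None of these 5 passed the filter on low counts that is described below. For 193 unigenes the best match in the NR database was castor bean (Ricinus) and for 65 it was poplar (Populus). One entry was often matched by several unigenes, as 63 of the 85 entries had at least 2. These may be fragments, alleles or related genes, whose reads the counting could have split, and they are not replicates of each other. Unigenes of the family ran from 317 to 6115 bp with a median of 1141 bp, against 682 bp for all unigenes. The table gives no unigene sequences, and none are shown.

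Reads counted on all unigenes numbered 14260169, 16849489 and 14099287 in the male libraries. The female libraries had 32719757, 40385019 and 11467832 reads. Here and throughout, values are given in the order of replicates 1, 2 and 3. Of these, 0.225, 0.409 and 0.289% fell on LRR receptor kinases in the male libraries and 0.568, 0.601 and 0.0876% in the female libraries. Female replicate 3 stood apart. A shared set of 5 unigenes, ranked by pooled counts and kept the same for each library, took 54.9% of its reads. That set took 1.12 to 36.9% in the other libraries. Only 215 of the 320 unigenes had a read in female replicate 3, against 271 to 313 elsewhere. Counts are therefore given as CPM, read counts relative to a library total scaled by TMM, which lessens the weight of a few very abundant unigenes. On that scale the family summed to 2799, 3007 and 3302 CPM in the male libraries and 3327, 3296 and 2753 CPM in the female libraries, and the sexes overlapped. Even so, 70 of the tested unigenes were lowest in female replicate 3, and results that change without it are given with and without it.

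The sampled organ was checked with marker lists. Of 57 tested unigenes named for pollen, anther, tapetum or polygalacturonase, 14 were called higher in male flowers and 0 in female flowers. Their list of 75 summed to 3112 to 4900 CPM in the male libraries and 787 to 1310 CPM in the female libraries. Of the 14, 10 are polygalacturonases, a family that the study itself follows in these samples, so that they are not independent evidence of the organ. Of the 20 other tested unigenes of the list, 4 were called. In the whole list 7 unigenes had no read in any female library, among them the polygalacturonase contig_36616. Of 30 unigenes named for floral homeotic and other MADS-box genes, 22 were tested and edgeR called none, with a median log2 difference of 0.56. Their CPM did not overlap in 8 with male flowers higher and in 3 with female flowers higher. The gynoecium list was matched by SPATULA unigenes alone, 3 in all, and none was called. Leaf plastid genes varied within both sexes, with sums of 2061 to 6820 CPM in male and 955 to 11054 CPM in female libraries, the highest in female replicate 3. In RNA of whole flower buds, fewer cells of a type and less RNA per cell cannot be told apart.

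Levels between genes were compared on mean RPKM over the 6 libraries, the read density per length that the authors deposited. The median LRR receptor kinase had a mean of 1.57 RPKM, and the median of all unigenes was 1.29 RPKM. At least 1 RPKM was reached by 178 unigenes and at least 10 RPKM by 42. The 10 highest held 24.7% of the summed RPKM of the family. These were led by ERECTA, which controls organ shape and the spacing of stomata, with contig_13396 at 50.6 and contig_797 at 50.2 RPKM. They were followed by contig_6100, a match of the cell wall receptor FEI 1, at 49.2 RPKM, and by contig_1098, a match of the CLE-peptide receptor BAM1, at 43.3 RPKM. Next came contig_3920 (At1g35710) at 41.9 RPKM, contig_6879 (At3g14840) at 36.1 RPKM and contig_1413 (At3g28040) at 31.4 RPKM. The list ended with contig_10204 (At1g14390) at 29.7, contig_3272 (At4g20940) at 28.6 and contig_161 (At3g28040) at 23.9 RPKM. Neighbours in this order overlapped over single libraries, so that their order is not fixed by these data.

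**Figure D1:**
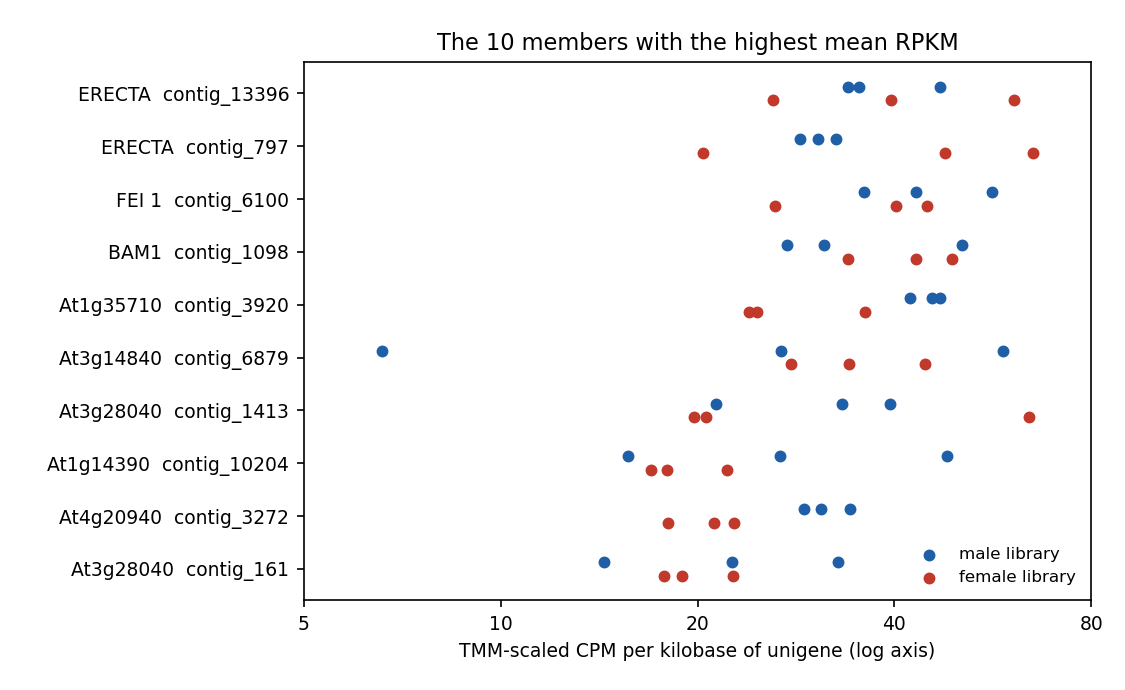
Level of the 10 LRR receptor kinase unigenes with the highest mean RPKM, as TMM-scaled CPM per kilobase of unigene on a log axis. Each point is 1 library, blue for male and red for female. In 8 of the 10 the sexes overlap, and in contig_3920 and contig_3272 all male libraries lie above all female libraries.

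Male and female flowers were compared with the edgeR quasi-likelihood test. A log2 difference above 0 means a higher level in male flowers, and a value below 0 a higher level in female flowers. Of the 320 unigenes, 196 (61.3%) passed the filter on low counts, and 52.3% of all unigenes did. The other 124 had a median of 34 reads over the 6 libraries and at most 3.03 RPKM, and they were not tested. Calls required an adjusted p (edgeR) under 0.05 together with a difference of 2-fold or more.

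LRR receptor kinases were called about as often as other unigenes. Among the 196 tested, 4 (2.04%) were called, all higher in male flowers, and 1.7% of all tested unigenes were called, 1.56% as higher in male and 0.143% as higher in female flowers. No LRR receptor kinase was called higher in female flowers by edgeR, although 17 had an unadjusted p under 0.05 in that direction and DESeq2 called 4. Over all 56065 unigenes DESeq2 called 657 higher in female flowers. At an unadjusted p under 0.05 there were 24 unigenes (12.2%; 13.2% of all), with 7 (3.57%) higher in male and 17 (8.67%) higher in female flowers, against 5.75% and 7.42% of all unigenes. The CPM of the sexes did not overlap for 35 unigenes (17.9%), against 19.4% of all. Of these 35, 14 (7.14%) had the higher CPM in male flowers and 21 (10.7%) had it in female flowers, against 10.4% and 9.06% of all unigenes. With RPKM as deposited, 6 did not overlap, against 4.74% of all unigenes.

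Whether the family lay to the female side of all unigenes depended on the fit. Of its 196 tested unigenes, 120 (61.2%) had a log2 difference below 0, against 54.5% of all tested unigenes. The median log2 difference was -0.22 in the family and -0.09 over all unigenes. Without the filter these medians were -0.07 and -0.35, and with DESeq2 -0.13 and -0.40. They were -0.18 and -0.21 without male replicate 1, and -0.12 and -0.16 without male replicate 2. In these fits the family lay above all unigenes. A log2 difference of -1 or less was found for 27 (13.8%; 16.1% of all) and of 1 or more for 9 (4.59%; 6.31% of all). The median SE of a log2 difference was 0.47, a large error beside differences whose quartiles were -0.67 and 0.29.

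**Figure D2:**
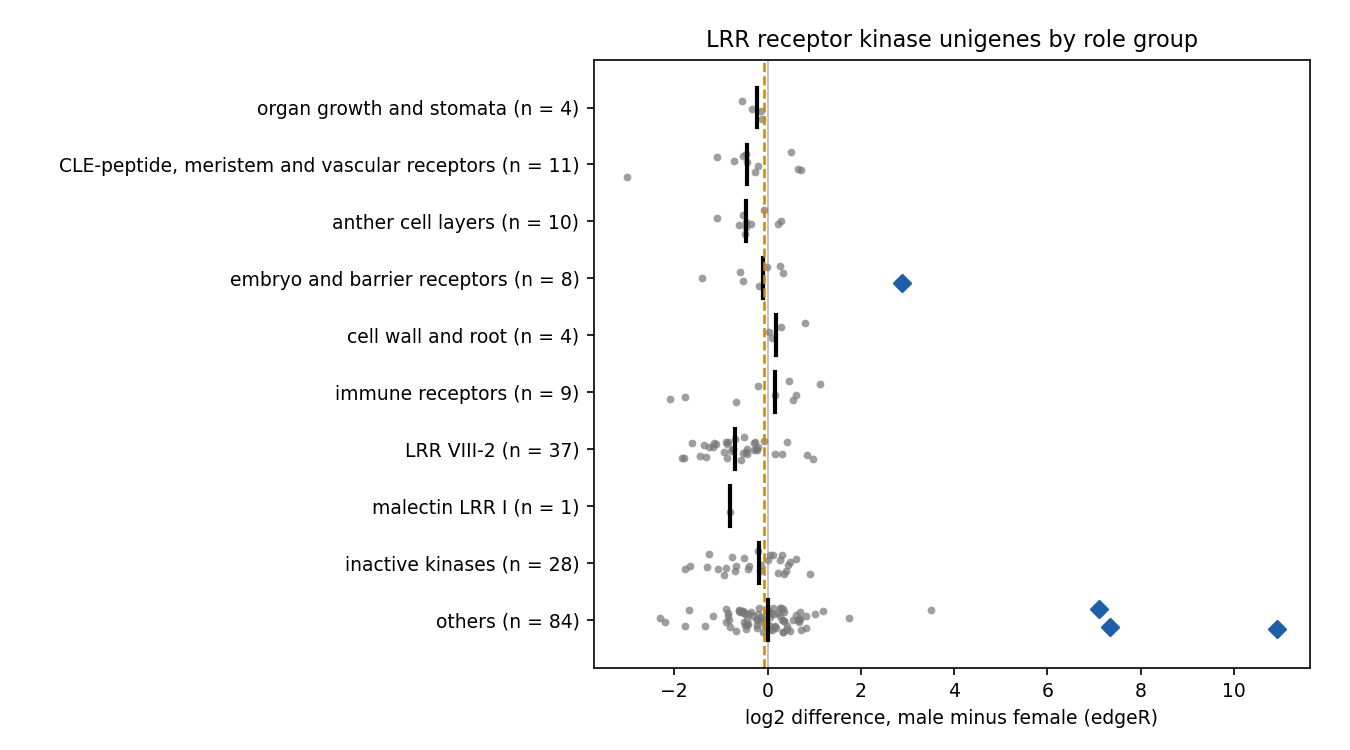
Log2 difference between male and female flowers (edgeR) for the 196 tested LRR receptor kinase unigenes, by role group, with the number of tested unigenes after each name. Black bars are group medians, blue diamonds are the 4 called unigenes, and the dashed line is the median of all tested unigenes (-0.09). The called unigenes lie on the male side, and most LRR VIII-2 unigenes lie left of the line.

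The 4 called unigenes differed in how much of the transcript female flowers held. The largest contrast was in contig_38073, which matched At1g67720, a kinase whose ligand is not given here. The male libraries had 6.28, 8.69 and 9.24 CPM, and no read was found in any of the 3 female libraries. All 385 of its reads were male, and against a floor of 3 reads over the female libraries its level in male flowers was at least 366-fold higher (edgeR adjusted p = 0.00250). The call held in each of the 6 fits without 1 library. The other unigenes that matched At1g67720 were present in both sexes. Of them, contig_8350 had 50.1, 47.3 and 54.2 CPM in male and 61.7, 69.3 and 45.8 CPM in female libraries, and contig_28692 had a log2 difference of -0.14.

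GSO1 is a receptor that in Arabidopsis is needed for the cuticle of the embryo and for the root barrier. Its unigene contig_25945, of 4457 bp, had 31.6, 18.6 and 25.3 CPM in male and 4.55, 2.80 and 2.74 CPM in female libraries. Every male library thus lay well above every female library, and the transcript was present in both sexes. The log2 difference was 2.88 with an SE of 0.38 (edgeR adjusted p = 0.00808). The call was lost without female replicate 2 (adjusted p = 0.0638), with library totals in place of TMM (adjusted p = 0.477) and with limma at either pseudocount. The other 6 tested GSO1 unigenes were not called and ran from -1.41 in contig_23810 to 0.33 in contig_1338. The most abundant of them, contig_1338 at 22.8 RPKM, had 52.4, 49.5 and 103 CPM in male and 60.4, 54.3 and 48.5 CPM in female libraries, which overlapped.

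The unigene contig_40284, a match of the kinase with the bare name RLK, was high in male replicates 2 and 3 only. Male libraries had 1.05, 23.1 and 21.3 CPM and female libraries 0.125, 0.0679 and 0 CPM. With 804 male against 12 female reads the pooled ratio was 191 (exact 95% interval 109 to 371, for counting error only). The log2 difference was 7.35 with an SE of 1.27 (edgeR adjusted p = 0.0305). The replicate block ended this call (adjusted p = 0.0590), as did leaving out male replicate 2 (0.0826) or 3 (0.0868) or female replicate 1 (0.123), 2 (0.184) or 3 (0.0525). The other RLK unigenes had too few reads for the test, with 28 male and 4 female reads in contig_34771 and 23 male and 0 female reads in contig_50450. Both had no read in male replicate 1. The anther and pollen list was also lowest in that library among the male libraries, at 3112 against 4428 and 4900 CPM, and its part in this result was not tested.

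The fourth called unigene, contig_38217, matched At1g06840 and was short (866 bp) and scarce. It had 3.49, 0.524 and 0.810 CPM in male and 0, 0.0136 and 0 CPM in female libraries. Its 62 male reads and 1 female read gave a pooled ratio of 177 (exact 95% interval 30.6 to 7090, for counting error only), and 83.1 without male replicate 1. The log2 difference was 7.11 with an SE of 1.31 (edgeR adjusted p = 0.0403). The call was lost with the replicate block (adjusted p = 0.0506) and without male replicate 3 (0.0700), female replicate 1 (0.206) or female replicate 2 (0.277). It was not called by limma at a pseudocount of 1 (adjusted p = 0.401) or 0.1 (0.279). None of the other 3 unigenes of At1g06840 was called. In contig_12574 the sexes were separated the other way, with 2.62, 3.06 and 2.27 CPM in male and 3.71, 5.07 and 6.31 CPM in female libraries (log2 difference -0.90, adjusted p = 0.396).

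A further unigene stood just outside the threshold. At3g47570, an Arabidopsis relative of the immune receptor EFR, was matched by 33 unigenes, of which 8 were tested. Of these, contig_9217 had 12.99, 5.11 and 2.998 CPM in male and 0.663, 0.706 and 0.274 CPM in female libraries. The sexes did not overlap, and the log2 difference was 3.51 with an SE of 0.68 (edgeR adjusted p = 0.0510). It passed with the replicate block (adjusted p = 0.0231), without male replicate 3 (0.0368), without the filter (0.0114) and with DESeq2. The other 7 tested unigenes of At3g47570 had log2 differences from -0.85 to 0.70.

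**Figure D3:**
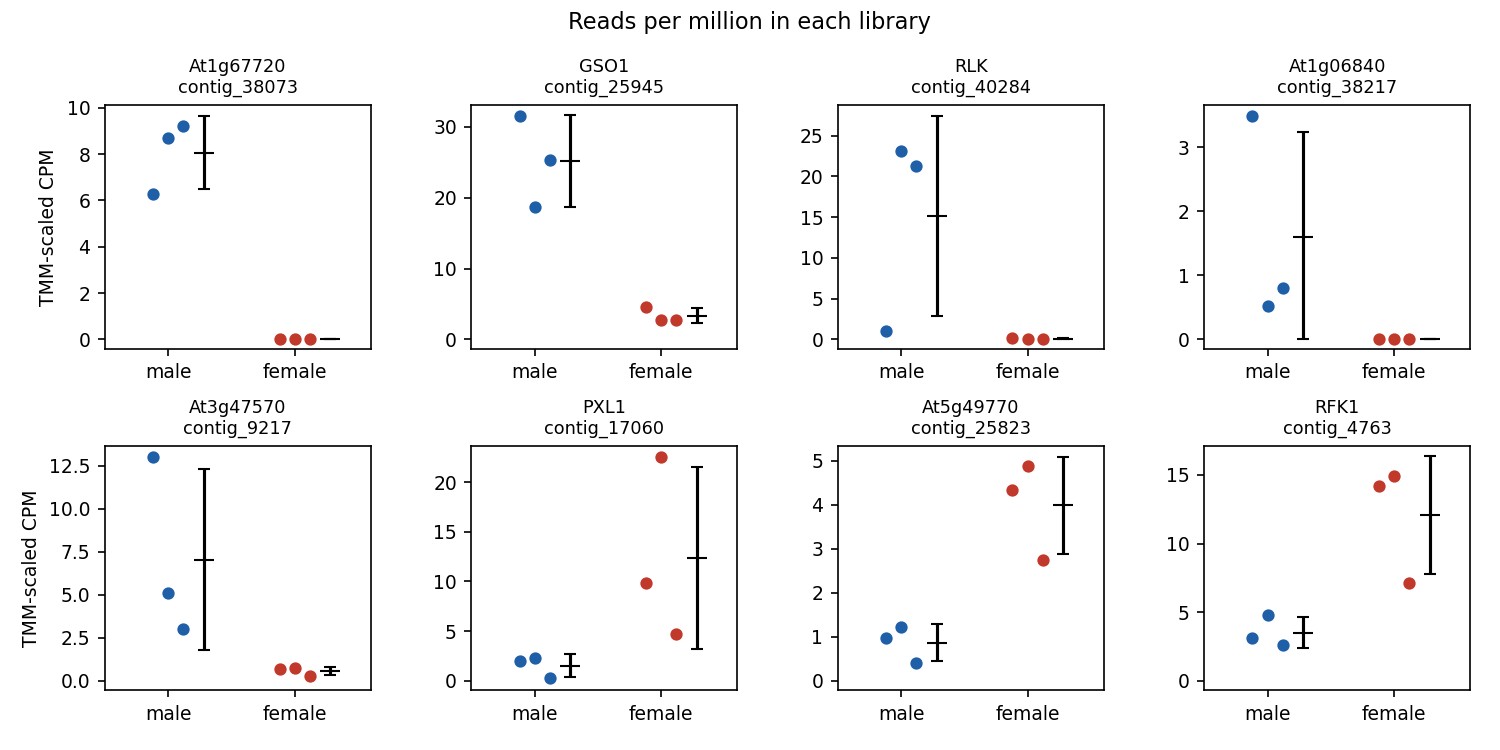
TMM-scaled CPM per library (points, blue for male and red for female) for the 4 called unigenes in the upper row and contig_9217 with 3 unigenes of higher female level in the lower row. Dashes with bars are means and SD over 3 libraries, drawn no lower than 0. All male points are above all female points in the first 5 panels and below them in the other 3.

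The lowest log2 difference of the family was that of contig_17060, which matched PXL1, a relative of the vascular receptor TDR. It had 2.01, 2.31 and 0.243 CPM in male and 9.88, 22.5 and 4.66 CPM in female libraries, without overlap. The log2 difference was -3.02 with an SE of 0.84 (edgeR adjusted p = 0.186), and only the fit with the replicate block (adjusted p = 0.0230) and DESeq2 (0.0131) called it. The second PXL1 unigene, contig_11401, had 2.62, 14.9 and 29.7 CPM in male and 6.82, 7.77 and 15.9 CPM in female libraries, which overlapped. TDR itself, the receptor of the peptide TDIF in the cambium, had log2 differences of -1.08 in contig_3564 and -0.71 in contig_15204, and PXL2 had 0.51. Neither TDR nor PXL2 was called.

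BAM1 and BAM3 bind CLE peptides, and BAM1 also acts in the early anther of Arabidopsis. The abundant BAM1 unigene contig_1098 had 137, 84.3 and 74.1 CPM in male and 91.9, 117 and 133 CPM in female libraries. Its log2 difference of -0.21 was below its SE of 0.37. The RCH1 unigene contig_2207, named after a root homolog of CLAVATA1, had 31.7, 53.0 and 75.4 CPM in male and 27.2, 30.7 and 40.02 CPM in female libraries (log2 difference 0.71, adjusted p = 0.472). Of 11 tested CLE-peptide, meristem and vascular receptors, 8 (72.7%) lay below 0, against 54.5% of all tested unigenes, with a median of -0.43, and edgeR called none with all 6 libraries. That median was -0.18 without male replicate 2, -0.23 without male replicate 3, -0.13 without the filter and -0.93 with library totals in place of TMM.

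No difference between the sexes was detectable at this depth in the receptors that define the cell layers of the anther. The paper describes these layers at a later stage, and at stage 7 the stamens were still primordia. EXS (also EMS1) is needed for the tapetum in Arabidopsis, and RPK2 for the inner anther wall. Of their 10 tested unigenes none reached an unadjusted p of 0.05, which 13.2% of all tested unigenes did, and none had sexes without overlap, as 19.4% of all did. The median log2 difference was -0.46, with 8 of the 10 below 0, but -0.12 with 6 of 10 below 0 without male replicate 3 and -0.91 with library totals in place of TMM. The EXS unigene with more reads, contig_6503, had 6.89, 1.97 and 1.22 CPM in male and 4.51, 6.68 and 3.84 CPM in female libraries. The 8 RPK2 unigenes ran from -0.52 to 0.29, and the highest in CPM, contig_13329, had 22.4, 27.7 and 27.8 CPM in male and 60.7, 18.6 and 19.7 CPM in female libraries.

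The ERECTA family was abundant in both sexes. The unigene contig_797 had 100, 107 and 94.1 CPM in male and 157, 214 and 66.9 CPM in female libraries. Female replicates 1 and 2 lay above all male libraries and female replicate 3 lay below them, and the log2 difference was -0.54 with an SE of 0.46 (edgeR adjusted p = 0.648). The other tested unigenes of the group had log2 differences of -0.13 (contig_13396) and -0.11 (contig_4483) for ERECTA and -0.34 (contig_897) for ERL2. ERL1, a relative that acts in stomata and anthers, was seen in contig_18335, with 8 male and 245 female reads, and edgeR did not test it. These reads are not scaled for depth, and female replicates 1 and 2 were the deepest libraries. DESeq2 called none of the 7 unigenes of the group, where it called 3.13% of all unigenes.

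Receptors of the cell wall and root were led by FEI 1. Its unigene contig_6100 had 97.8, 117 and 153 CPM in male and 122, 109 and 71.5 CPM in female libraries (log2 difference 0.28). MRH1, which is needed for root hairs, was separated in contig_7090, with 16.8, 21.9 and 28.8 CPM in male and 14.4, 13.01 and 11.2 CPM in female libraries (log2 difference 0.80, SE 0.31, adjusted p = 0.338). FEI 2 was found in contig_23718, with 16 male and 233 female reads, and was not tested by edgeR with all 6 libraries. DESeq2 called it at a log2 difference of -2.29 (adjusted p = 0.0499). The median of the 4 tested unigenes was 0.18, and -0.23 with library totals in place of TMM.

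Immune receptors were scarce and often incomplete. EFR, the receptor of bacterial elongation factor, was matched by 19 unigenes, of which 4 were tested, and FLS2, the flagellin receptor, by 9, of which 4 were tested. None of the 9 tested immune receptors reached an unadjusted p of 0.05 or was called by DESeq2. SOBIR1, an adaptor kinase of LRR receptor proteins, was uneven within female flowers. Its unigene contig_14050 had 2.53, 9.78 and 6.89 CPM in male and 66.4, 2.85 and 12.1 CPM in female libraries, and the sexes overlapped. The log2 difference was -2.09 (adjusted p = 0.438), and -0.16 without female replicate 1 (adjusted p = 0.970).

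Most LRR VIII-2 unigenes lay on the female side. These kinases carry a malectin-like domain beside their leucine-rich repeats, and one of them, RFK1, was named as a receptor-like kinase of flowers in Arabidopsis. Of 41 unigenes 37 were tested, and 32 of these (86.5%) had a log2 difference below 0, against 54.5% of all tested unigenes. Their median was -0.69, and it ran from -0.79 to -0.48 in the fits without 1 library, with 31 to 34 unigenes below 0. It was -1.20 with library totals in place of TMM, where all unigenes had -0.41. Without the filter 33 of 41 (80.5%) lay below 0 with a median of -0.46, where all unigenes had 61.7% and -0.35. With DESeq2 the median was -0.50 in the group and -0.40 over all unigenes. An unadjusted p under 0.05 was found for 8 (21.6%), all higher in female flowers, against 7.42% of all unigenes in that direction. The CPM did not overlap in 8 (21.6%), with all female libraries higher, against 9.06% of all unigenes. On RPKM as deposited 1 did not overlap, where 4.74% of all unigenes did. With all 6 libraries edgeR called none and DESeq2 called 1, contig_4763, where it called 3.13% of all unigenes. Without female replicate 3 edgeR called 1, where 2.62% of all tested unigenes were called.

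All 7 tested RFK1 unigenes were below 0, from -1.83 to -0.45. The unigene contig_4763 had 3.14, 4.76 and 2.59 CPM in male and 14.2, 14.9 and 7.13 CPM in female libraries, without overlap. Its log2 difference was -1.80 with an SE of 0.43 (edgeR adjusted p = 0.122), and it was the one called by DESeq2 (adjusted p = 0.0260) and without female replicate 3 (adjusted p = 0.0476). In contig_12025 the CPM were 0.262, 0.960 and 0.729 in male and 2.20, 2.93 and 1.92 in female libraries, again without overlap (log2 difference -1.83, adjusted p = 0.252). The unigenes of At3g14840 (7 tested), At1g07650 (4) and At1g53430 (3) were also all below 0. The 5 unigenes above 0 matched At1g56130 (2) and At1g56140 (3), and these entries had other unigenes below 0. Summed over its unigenes, RFK1 had a log2 difference of -0.82 with an SE of 0.37 (adjusted p = 0.400).

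The group was higher in female replicates 1 and 2 than in the other libraries. It summed to 291, 359 and 385 CPM in male libraries and to 547, 592 and 351 CPM in female libraries. Female replicate 3 thus lay within the male range, although single unigenes such as contig_5816 (At1g29720) kept all female libraries above the male ones, with 3.05, 3.75 and 4.94 against 9.17, 14.3 and 6.31 CPM. Leaf plastid genes were highest in female replicate 3, at 11054 CPM, and their part in this pattern was not tested.

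**Figure D4:**
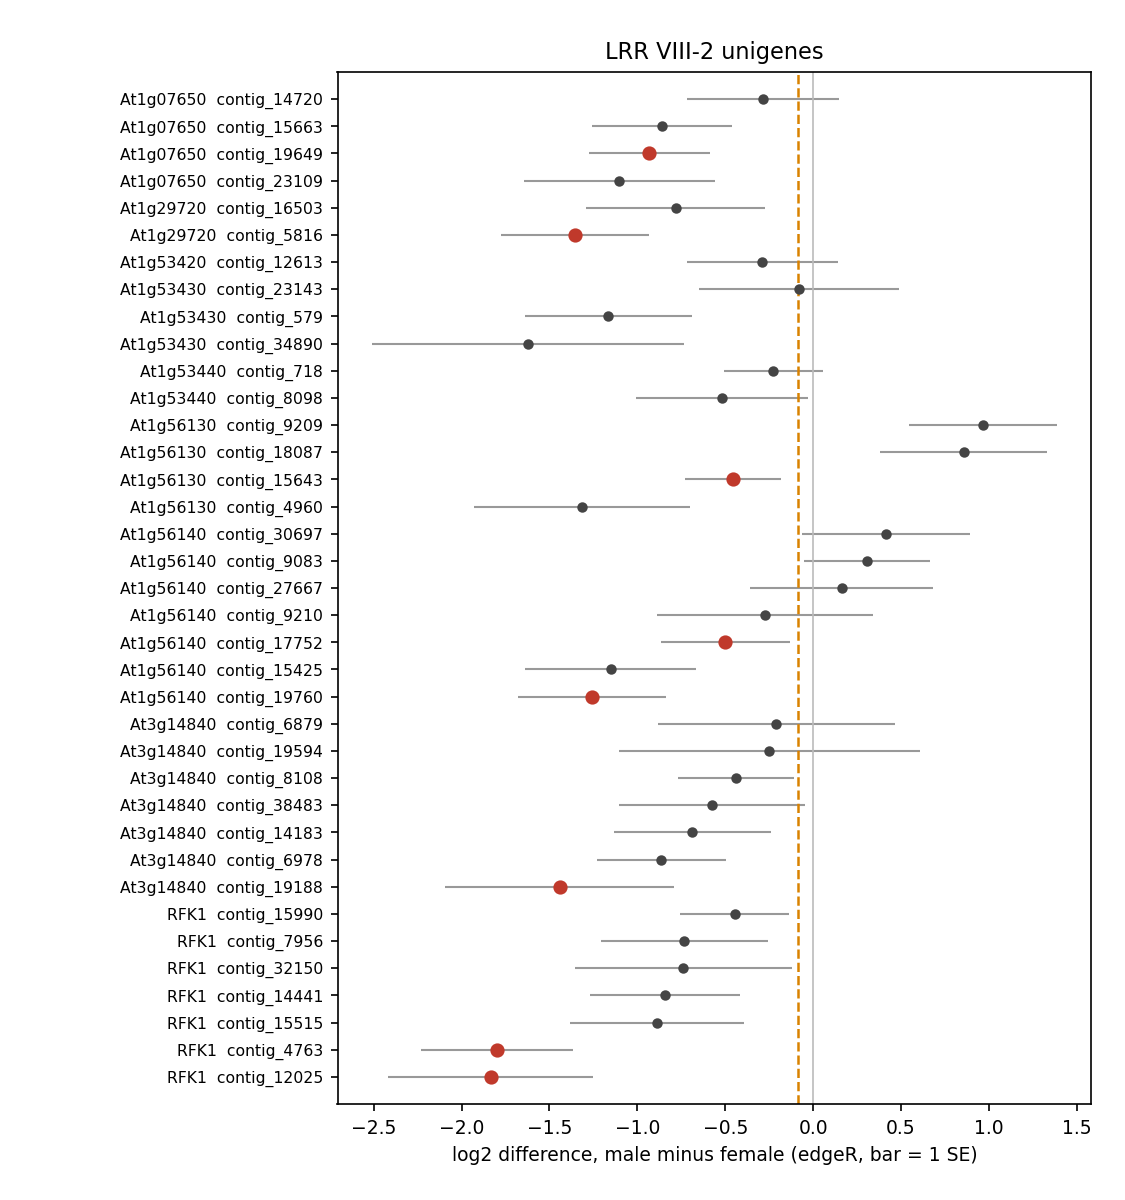
Log2 difference between male and female flowers (edgeR) with 1 SE for the 37 tested LRR VIII-2 unigenes, sorted by SwissProt match. Red points are the 8 unigenes whose female libraries all lie above the male libraries, and the dashed line is the median of all tested unigenes. Of the 37, 32 are left of 0, and the 5 to the right match At1g56130 and At1g56140.

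Receptors annotated as inactive kinases are thought to lack kinase activity. Of 43 unigenes 28 were tested and edgeR called none with all 6 libraries. The fit without the filter called 1, where 1.43% of all unigenes were called, and the fit without male replicate 1 called 2, where 2% were called. DESeq2 called 3, where 3.13% were called. All of these calls were higher in male flowers. Their median was -0.19, but 0.21 without the filter and 0.19 with DESeq2, both over more unigenes, 0.13 when male replicate 1 was left out and 0.05 when female replicate 3 was. The most abundant, contig_1413 (At3g28040), had 117, 182 and 215 CPM in male and 108, 112 and 351 CPM in female libraries. CORYNE, a partner of CLAVATA2 in meristem signalling, had log2 differences of -1.05 in contig_19962 and -0.21 in contig_26779. IMK2, named after the inflorescence meristem, had log2 differences of both signs. Its unigene contig_19016 had 12.99, 3.01 and 2.59 CPM in male and 34.8, 20.9 and 6.85 CPM in female libraries, and contig_25591 had 4.36, 24.97 and 5.997 against 6.14, 5.70 and 7.13 CPM. Neither was called.

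Some members are receptors of the Arabidopsis pollen tube that carry a locus name here. The locus At5g20690 is known as the pollen receptor-like kinase PRK6, which perceives attractants from the ovule, and At1g50610 as PRK5. These unigenes were picked after their values were seen, and edgeR with all 6 libraries did not test those with few reads. At5g20690 was matched by 6 unigenes, of which contig_38652 had 41 male and 0 female reads, contig_49806 had 29 and 0, contig_49955 had 44 and 6, contig_49880 had 12 and 3 and contig_49879 had 12 and 2. For At1g50610, contig_45681 had 34 male and 2 female reads and contig_38763 had 31 and 3. In contig_38652, contig_49806, contig_49955, contig_45681 and contig_38763 male replicate 1 had the lowest CPM of the male libraries, 0 to 0.174. DESeq2 called contig_38652, contig_45681 and contig_38763. The sixth unigene of At5g20690, contig_25053 of 331 bp, was tested and went the other way, with 0.872, 0.873 and 0.567 CPM in male and 1.49, 2.35 and 1.65 CPM in female libraries (log2 difference -1.25, adjusted p = 0.347). Summed over its unigenes, At5g20690 had a log2 difference of 0.87 with an SE of 0.62 (edgeR adjusted p = 0.585). A further locus of this kind, At4g31250 (PRK7), was matched by 1 unigene of 1509 bp. In the fit summed per entry its log2 difference was 0.17 with an SE of 0.49 (edgeR adjusted p = 0.907).

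The members without a role group numbered 154, of which 84 were tested and 3 (3.57%; 1.7% of all tested unigenes) were called, with a median log2 difference of 0.01. A group of malectin-like LRR I kinases, picked by a short list of names, had 2 unigenes, of which contig_4312 was tested at -0.80. Kinases of that class with other names were not assigned to it. Further members stood out by level or by separated sexes. The unigene contig_3920 (At1g35710) had 74.99, 81.1 and 83.4 CPM in male and 63.9, 43.7 and 42.5 CPM in female libraries (log2 difference 0.67, adjusted p = 0.400). In contig_3272 (At4g20940) the values were 156, 141 and 132 CPM in male and 81.9, 96.3 and 103 CPM in female libraries (log2 difference 0.61, adjusted p = 0.460). Both were higher in every male library, by less than 2-fold. At5g49770 had log2 differences of both signs. The abundant contig_6526 had a log2 difference of 0.55, whereas contig_25823 had 0.959, 1.22 and 0.405 CPM in male and 4.33, 4.88 and 2.74 CPM in female libraries (log2 difference -2.21, adjusted p = 0.135). HSL2, a relative of the abscission receptor HAESA, had log2 differences of -0.55 in contig_9891 and 0.32 in contig_23343.

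Unigenes of one SwissProt entry had log2 differences of both signs in 29 (59.2%) of 49 entries with at least 2 tested unigenes, and in 50.1% of 3196 such entries over all unigenes. Most of these differences were not called. When the reads were summed per entry, 75 entries were tested and 1 was called. This was RLK at a log2 difference of 7.04 with an SE of 1.27 (edgeR adjusted p = 0.0452). Of all 23082 rows tested in that fit, which also held single unigenes without a SwissProt match, 1.37% were called. The summed differences were 0.37 for GSO1, -0.29 for At1g06840 and -0.03 for At1g67720, none of them called. The median over these entries was -0.08, and -0.09 over all rows tested in that fit.

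The partners of these receptors were counted from lists of SwissProt names. Of 17 peptide ligand unigenes 11 were tested and edgeR called none, where it called 1.7% of all tested unigenes. Their median log2 difference was 0.08. The highest, contig_600 (phytosulfokines 6), had a log2 difference of 0.08. EPFL9, the peptide that promotes stomata, was at 20.6 RPKM in contig_10828, with 12.9, 9.56 and 12.4 CPM in male and 7.93, 9.48 and 7.40 CPM in female libraries (adjusted p = 0.543). A further ligand of that family, EPFL6 in contig_26372, had 1.05, 0.437 and 0.243 CPM in male and 1.36, 2.88 and 1.37 CPM in female libraries (log2 difference -1.76, adjusted p = 0.332).

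Of 26 co-receptor unigenes 20 were tested and edgeR called none, where it called 1.7% of all tested unigenes. The median log2 difference was 0.09. SERK1, which in Arabidopsis acts with EMS1 in the anther, reached 129 RPKM in contig_3051. It had 110, 177 and 292 CPM in male and 68.6, 83.5 and 401 CPM in female libraries, the highest in female replicate 3. The co-receptor with the lowest p was NSP-INTERACTING KINASE 3 in contig_16983, with 11.2, 14.8 and 10.8 CPM in male and 22.1, 27.7 and 18.9 CPM in female libraries (log2 difference -0.91, adjusted p = 0.274).

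Among 64 other LRR receptor kinases that the selection left out, 43 were tested and 1 (2.33%; 1.7% of all) was called, with a median of -0.20. This was STRUBBELIG-RECEPTOR FAMILY 5 in contig_20614, of a family that shapes tissues in Arabidopsis. It had 36.8, 37.98 and 42.8 CPM in male and 1.79, 1.47 and 2.19 CPM in female libraries, a log2 difference of 4.48 with an SE of 0.33 (edgeR adjusted p = 0.000530). The highest in this list was the inactive receptor kinase At1g48480 in contig_984, at 61.5 RPKM and a log2 difference of 0.14.

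Downstream, 38 of 44 unigenes of cytoplasmic kinases and MAP kinase steps were tested and 2 (5.26%; 1.7% of all) were called, with a median of 0.02. Both were scarce. MAP kinase kinase 5 in contig_38467 had 2.88, 1.57 and 1.86 CPM in male libraries and no read in female libraries (edgeR adjusted p = 0.0136). PBS1, a kinase of immune signalling, had 61 male and 4 female reads in contig_38705 (adjusted p = 0.0465, and 0.0873 with the replicate block). The most abundant of the list, APK1A in contig_26423 at 58.2 RPKM, had a log2 difference of 0.67 (adjusted p = 0.532).

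Results by other tests bear on how many members were called. DESeq2, fitted to all unigenes without the filter, called 14 LRR receptor kinases, 10 higher in male and 4 in female flowers. It called 3.13% of all 56065 unigenes, and to some of these it gave no adjusted p. With the replicate block 4 were called, 3 higher in male and 1 higher in female flowers, and 1.78% of all unigenes. An exact permutation test of 3 against 3 samples cannot give a p below 0.1 for a single unigene.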

How the data were processed

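RNA of 3 male and 3 female flower samples was sequenced on the Illumina HiSeq platform. Per the methods, adapters, reads below a minimum length and bases of low quality were trimmed before de novo assembly. The authors deposited read counts per unigene and RPKM values, which scale counts by unigene length and library total. The mapping and counting program was not given in the sources used here. Of 56072 lines, 7 without a unigene were left out. All 12 sample columns were used, and RPKM recomputed from the counts differed by at most 4.73e-08 in relative terms.

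Columns were assigned to samples by sex and number in their names. The description was taken after the first colon, since the table has no space there. The members and lists were chosen with earlier results of these data known.

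Counts were tested with edgeR 4.0.16 in R 4.3.3 (filterByExpr, TMM, quasi-likelihood F test), with limma 3.58.1 and DESeq2 1.42.0, and in Python 3.11.15 with pandas 2.3.3, numpy 2.4.6, scipy 1.17.1 and matplotlib 3.10.9. P-values were adjusted by Benjamini-Hochberg over all 29327 tested unigenes. The SE is the size of the log2 difference over the square root of its F statistic. TMM factors ran from 0.319 (female replicate 3) to 1.86 (female replicate 2), which left effective totals of 3648171 to 73636463 reads, so that female replicate 3 is the least precise. The biological coefficient of variation was 51.0%. The study used DEGseq on RPKM, which was not run here.

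After removal of sex means, same-numbered libraries correlated across unigenes by 0.194, 0.125 and 0.371, and for other pairs by -0.315 to 0.159. Male replicate 1 with female replicate 2 gave 0.159, above the 0.125 of the same-numbered replicate 2. These correlations therefore do not settle whether the numbers pair the samples. The main fit had no block, and a fit with the replicate number as a block is given as an alternative.

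Named unigenes were the called members, those with a role-group name and at least 1 RPKM, the 10 highest by RPKM, in each direction the 5 most different at an unadjusted p under 0.05, and called or highest partners. Further unigenes of matches discussed, and the EPFL9, EPFL6 and NSP-INTERACTING KINASE 3 unigenes, were picked after their values were seen. Alternatives were no filter, median-of-ratios scaling, library totals without TMM, DESeq2, limma on log2(RPKM + 1) and log2(RPKM + 0.1), a replicate block, no fold threshold, each library left out, and reads summed per SwissProt match. Separation on RPKM as deposited was added after seeing the data.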

Additional observations from a re-analysis of the deposited data

How the results depend on the processing

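Against 4 members called by edgeR, DESeq2 called 14 (10 higher in male, 4 in female flowers) and limma called 2 with either pseudocount, all higher in male flowers, and summing per SwissProt match called 1. Over all unigenes edgeR called 1.7%, DESeq2 3.13% and the summed fit 1.37%. Of all 29327 tested unigenes limma called 351 at a pseudocount of 1 and 374 at 0.1. The fits without 1 library called 1 to 7 members, all but 1 of them higher in male flowers, with 7 when male replicate 1 was left out, 2 for female replicate 1 and 1 for female replicate 2. Over all unigenes these 3 fits called 737 of 36857, 297 of 29721 and 269 of 29691. Members called higher in female flowers numbered 0 in the main fit, and 0 to 1 without 1 library. The median of the members was -0.22 and moved to -0.75 with library totals in place of TMM, a scaling that moved the median of all unigenes by -0.32. Members with separated sexes numbered 35, and 6 on RPKM as deposited. The cause was not tested.

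Of the partner lists, peptide ligands went from 0 to 1 call with DESeq2 and to between 0 and 2 without 1 library, and co-receptors from 0 to 1 with DESeq2. Other LRR receptor kinases had 1 call, 2 with DESeq2, 0 with limma at a pseudocount of 1, and 1 to 2 without 1 library. Cytoplasmic and MAP kinases had 2 calls, 1 with library totals, 0 with limma at either pseudocount, 1 when summed per match, and 0 to 2 without 1 library. Over all unigenes edgeR called 1.7%, DESeq2 3.13% and the summed fit 1.37%. Of 29327 tested unigenes, 482 were called with library totals, and 351 and 374 by limma. The fits without 1 library called from 269 of 29691 to 970 of 37016.

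With the replicate block, 4 members were called, 1 of them higher in female flowers, and 1 of the cytoplasmic and MAP kinases, against 1.78% of all tested unigenes. The block ended the calls of contig_38217 and contig_40284, added contig_9217 and contig_17060, and changed no other call among the members. Among 86 named unigenes with a test, no call reversed, 16 alternatives ended a call and 9 added one, and values without a call changed sign 78 times, in 28 unigenes. Depth limits unigenes with few reads, above all in female replicate 3, and 124 members had too few reads to be tested.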
